A study of Rattus norvegicus with 24 samples.

Results

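The ACTH receptor gene and 5 further genes that regulate or mark the adrenal cortex were followed in adrenal gland, left ventricle and superior cervical ganglion of the spontaneously hypertensive rat (SHR) and of the Wistar-Kyoto rat (WKY). The 6 genes, Mc2r, Mrap, Nr5a1, Nr0b1, Akr1b7 and Tspo, were taken by symbol from the deposited expression table, in which 20506 genes had values. SHR is an inbred strain with inherited high blood pressure, WKY is its usual normotensive control, and all animals were 24 weeks old. The labels give no treatment and no introduced allele, so strain and tissue are what the groups differ in. Each of the 6 groups (SHR adrenal gland, WKY adrenal gland, SHR left ventricle, WKY left ventricle, SHR ganglion, WKY ganglion) held 4 libraries, 24 in all. Whether each library came from a separate rat is not stated, so a p-value here speaks of the spread among the libraries of a group, which could be technical. The question for each gene was whether its level in a tissue differs between the hypertensive strain and its control.

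Adrenocorticotropic hormone (ACTH) from the pituitary drives the cortex to make glucocorticoids. It acts through the G protein-coupled receptor encoded by Mc2r, which reaches the cell surface and binds its ligand only together with the small membrane protein encoded by Mrap, and the signal runs through adenylyl cyclase, cyclic AMP and protein kinase A. Nr5a1 encodes steroidogenic factor 1 (SF-1), the nuclear receptor that switches on the steroid-making genes, and Nr0b1 encodes DAX-1, a nuclear receptor that represses SF-1. Akr1b7 encodes an aldose reductase-like enzyme that in mouse is induced by ACTH in the cortex and removes an aldehyde released when the cholesterol side chain is cut. Tspo encodes the translocator protein of the outer mitochondrial membrane, a binder of cholesterol whose need for steroid synthesis is debated. The samples are labelled adrenal gland, and medulla markers were found in both strains, so tissue of the catecholamine-making medulla was included.

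Promoter windows of 300 bases, from 250 bases before to 50 after the annotated start, were available from RefSeq (build GRCr8) for 4 of the 6 genes. They were searched on both strands for AAGGTCA, the element bound by SF-1, and for TGACGTCA, the cyclic AMP response element; the motifs do not overlap each other. The windows of the genes with a strain difference in the adrenal gland, Mc2r and Nr0b1, are shown together with that of Akr1b7, which had the only match among the 4. Capitals mark the match, which reads TGACCTT because it lies on the strand opposite to the gene.
Akr1b7: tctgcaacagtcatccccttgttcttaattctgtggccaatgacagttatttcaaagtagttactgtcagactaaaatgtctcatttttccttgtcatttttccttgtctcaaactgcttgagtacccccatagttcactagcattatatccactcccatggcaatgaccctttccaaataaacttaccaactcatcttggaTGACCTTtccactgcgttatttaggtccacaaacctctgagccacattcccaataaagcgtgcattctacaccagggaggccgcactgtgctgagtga
Mc2r: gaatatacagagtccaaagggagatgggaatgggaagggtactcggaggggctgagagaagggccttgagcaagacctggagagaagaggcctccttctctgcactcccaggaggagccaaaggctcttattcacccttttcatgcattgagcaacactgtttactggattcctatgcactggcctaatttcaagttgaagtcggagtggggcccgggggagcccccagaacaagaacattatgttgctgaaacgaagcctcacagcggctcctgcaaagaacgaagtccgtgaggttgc
Nr0b1: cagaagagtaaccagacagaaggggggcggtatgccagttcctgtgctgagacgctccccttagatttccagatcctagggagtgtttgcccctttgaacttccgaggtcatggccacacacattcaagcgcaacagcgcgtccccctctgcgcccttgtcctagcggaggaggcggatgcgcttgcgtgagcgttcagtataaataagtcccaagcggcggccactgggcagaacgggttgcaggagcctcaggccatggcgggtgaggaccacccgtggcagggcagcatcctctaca
The Akr1b7 window lies at chr4:64043720-64044019 on the plus strand, and its match begins 48 bases before the start site. The Mc2r window lies at chr18:64290714-64291013 on the minus strand and the Nr0b1 window at chrX:54707408-54707707 on the plus strand. Of 33469 promoter windows of this length, 4.61% held AAGGTCA and 1.83% held TGACGTCA. The Nr5a1 window held neither. A match describes letters in the window and not a bound site. Variants of either motif were not searched, so a window without a match may still hold such a site.

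Marker genes matched the tissue labels. The summed level of 6 cortex markers was 30963 to 32773 FPKM (fragments normalized to transcript length and to the size of the library) in SHR adrenal glands and 28144 to 30598 FPKM in WKY adrenal glands, against 23.9 to 35.0 FPKM in the ventricles and ganglia of both strains. The number of reads per library is unknown because FPKM carries no count, so precision rests on the spread of 4 libraries. Each strain difference is SHR minus WKY in log2(FPKM + 1); the added 1 shrinks the differences of genes with low levels. Differences were tested with limma over all genes of a tissue that reached 1 FPKM in at least 4 of 8 libraries. In the adrenal gland, 41.2% of 12589 genes passed an adjusted p of 0.05 in either direction, 16.5% higher and 24.7% lower in SHR. Higher genes made up 40.0% of these calls, 53.1% when libraries were scaled by median of ratios, and 49.7% after quantile normalization. Of the 6 members 2 passed, a share close to that of all genes. In bulk tissue, fewer cells of a type and less RNA per cell cannot be told apart. The summed level of 10 medulla markers was 986 to 1739 FPKM in SHR adrenal glands and 2069.6 to 2384 FPKM in WKY adrenal glands, and 9 of the 10 fell. The summed level of 10 endothelial markers was 134 to 191 FPKM in SHR and 229 to 258 FPKM in WKY adrenal glands, and that of 10 leukocyte markers was 133 to 206 FPKM in SHR and 299 to 412 FPKM in WKY, with 10 and 8 markers lower. No marker of these 3 lists was below 1 FPKM in all adrenal libraries of a strain. The summed level of 5 erythroid markers was 82.6 to 268 FPKM in SHR and 591 to 701 FPKM in WKY, with 4 of 4 tested lower and Slc4a1 below 1 FPKM throughout. Alas2, at most 0.56 FPKM in SHR, passed the filter only through the WKY libraries, so its call is no independent sign of a difference. Markers of sympathetic neurons, some shared with the medulla list, summed to 167 to 336 FPKM in SHR and 448 to 529 FPKM in WKY (6 of 8 lower). Those of cardiomyocytes summed to 3.61 to 8.86 FPKM in SHR and 12.4 to 14.2 FPKM in WKY (4 of 5 tested lower), with Pln and Ryr2 below 1 FPKM throughout. Myh6 and Myl2 likewise passed the filter only through the WKY libraries, so a lower call of either is no independent sign. The part of these gaps in the results was not tested.

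All 6 genes had their highest levels in the adrenal gland, and 3 of them were near absent elsewhere. Per length, Akr1b7 was the most abundant, at 3929 to 5512 FPKM in SHR and 4372 to 5114 FPKM in WKY adrenal glands. Tspo followed with 449 to 488 FPKM in SHR and 453 to 570.0 FPKM in WKY, then Mrap with 181 to 379 FPKM in SHR and 401 to 492 FPKM in WKY. Nr5a1 was at 129 to 233 FPKM in SHR and 158 to 224 FPKM in WKY, Mc2r was at 139 to 169 FPKM in SHR and 100.3 to 120.4 FPKM in WKY, and Nr0b1 came last at 3.86 to 7.98 FPKM in SHR and 8.80 to 12.9 FPKM in WKY. Neighbours in that order overlapped for Mrap and Nr5a1 and for Nr5a1 and Mc2r in SHR, and for Tspo and Mrap in WKY. Together the 6 genes held 1.02% to 1.31% of the summed FPKM of an SHR adrenal library and 1.11% to 1.26% of a WKY one.

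**Figure D1:**
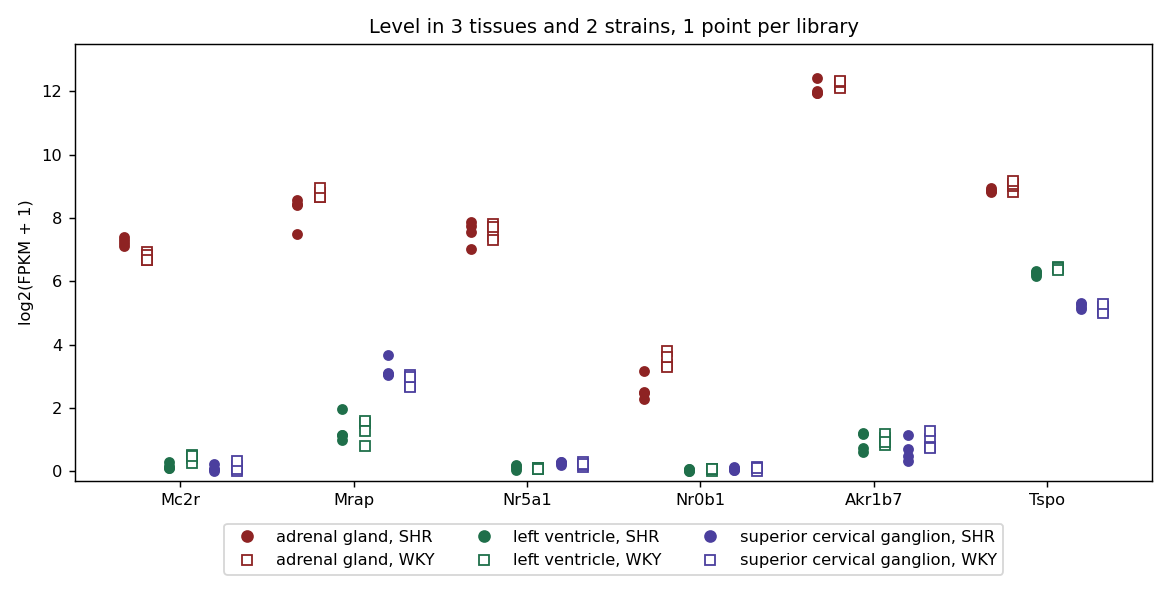
Level of each gene as log2(FPKM + 1), with 1 point per library, filled circles for SHR and open squares for WKY, in adrenal gland, left ventricle and superior cervical ganglion. Mc2r, Nr5a1 and Nr0b1 stay near 0 outside the adrenal gland, while Tspo is above 30 FPKM in all 3 tissues and Mrap is at 5.37 to 11.8 FPKM in the ganglion.

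Outside the adrenal gland, no ventricle or ganglion library reached 1 FPKM for Mc2r, Nr5a1 or Nr0b1. Mc2r had 0.07 to 0.21 FPKM in SHR ventricles and 0.19 to 0.43 FPKM in WKY ventricles, and at most 0.16 FPKM in SHR ganglia and 0.24 FPKM in WKY ganglia. Nr5a1 did not exceed 0.23 FPKM and Nr0b1 did not exceed 0.09 FPKM in either tissue. These 3 genes passed the filter of the model over all 24 libraries only through the adrenal gland, so their tissue difference was fixed by the filter and is not counted as a result. Akr1b7 was at 0.51 to 1.28 FPKM in SHR and 0.77 to 1.24 FPKM in WKY ventricles, and at 0.24 to 1.20 FPKM in SHR and 0.66 to 1.42 FPKM in WKY ganglia. Tspo was present everywhere: adrenal gland exceeded left ventricle by 2.61 (SE 0.05, limma adjusted p = 9.57e-24) and ganglion by 3.77 (SE 0.05, limma adjusted p = 6.20e-27). Of all 14682 genes in that model, 54.9% were higher in adrenal gland than in ventricle and 49.3% higher than in ganglion.

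Besides Tspo, Mrap was the member with levels above 5 FPKM outside the adrenal gland. In the ganglion it had 11.8, 7.51, 7.25 and 7.47 FPKM in SHR and 5.5, 7.23, 5.37 and 6.88 FPKM in WKY. The lowest SHR library, at 7.25 FPKM, was barely above the highest WKY one, at 7.23 FPKM. How many ganglion genes separate by strain in this way was not counted. The strain difference of 0.37 (SE 0.15) did not pass (limma adjusted p = 0.168, against 10.8% of 12987 ganglion genes called). Its 95% interval was 0.03 to 0.72, and the difference was 0.22 without SHR replicate 1, the highest library. Mrap is also expressed by fat cells, and the summed level of 6 adipocyte markers in the ganglion was 80.6, 62.2, 20.3 and 42.7 FPKM in SHR and 46.1, 15.4, 6.72 and 105 FPKM in WKY, with Lep below 1 FPKM throughout. The part of fat in the Mrap level was not tested. In the left ventricle Mrap had 0.96 to 2.93 FPKM in SHR and 0.75 to 2.02 FPKM in WKY, with a strain difference of 0.01 (95% interval -0.53 to 0.55).

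The ACTH receptor transcript was higher in SHR adrenal glands. Mc2r had 158, 148, 169 and 139 FPKM in the SHR adrenal libraries and 120.4, 100.3, 114 and 100.4 FPKM in the WKY ones. All SHR libraries were above all WKY libraries. Over all adrenal genes tested, the strains did not overlap in 39.4%, with SHR above in 16.3% and below in 23.2%, and among the members this held for Mc2r (above), Mrap and Nr0b1 (both below). The mean was 154 ± 12.8 FPKM in SHR and 109 ± 10 FPKM in WKY (SD, n = 4 each), so the SHR mean was 1.41 times the WKY mean. The log2 difference was 0.50 (SE 0.08, limma adjusted p = 0.00122) and lay between 0.45 and 0.57 under the 15 alternatives tried, with adjusted p from 6.21e-05 to 0.00511.

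The transcript of the receptor's accessory protein was at lower levels in the SHR libraries, but the difference missed the threshold. Mrap had 345, 379, 181 and 336 FPKM in SHR adrenal glands and 401, 440.3, 401 and 492 FPKM in WKY adrenal glands. Every SHR library was below every WKY library, and SHR replicate 3 was far below the other SHR libraries. The difference of -0.53 (SE 0.22, 95% interval -1.03 to -0.03) did not pass the threshold (limma adjusted p = 0.0845). Without SHR replicate 3 the difference was smaller, -0.29, and passed (limma adjusted p = 0.0209). Over all alternatives it ranged from -0.64 to -0.29, with adjusted p from 0.0209 to 0.186.

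The ratio of accessory protein to receptor transcript combines the values above. Mrap over Mc2r, as a ratio of FPKM within a library, was 2.19, 2.56, 1.07 and 2.41 in SHR and 3.33, 4.39, 3.53 and 4.90 in WKY adrenal glands. The SHR ratios were all below the WKY ratios. On the log2 scale the ratio averaged 0.96 ± 0.58 in SHR and 2.0 ± 0.26 in WKY (SD, n = 4 each), a difference of -1.03. Because every SHR library was above every WKY library for Mc2r and below for Mrap, the ratios had to separate, and no test is given. A scaling factor of a library does not enter such a ratio.

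**Figure D2:**
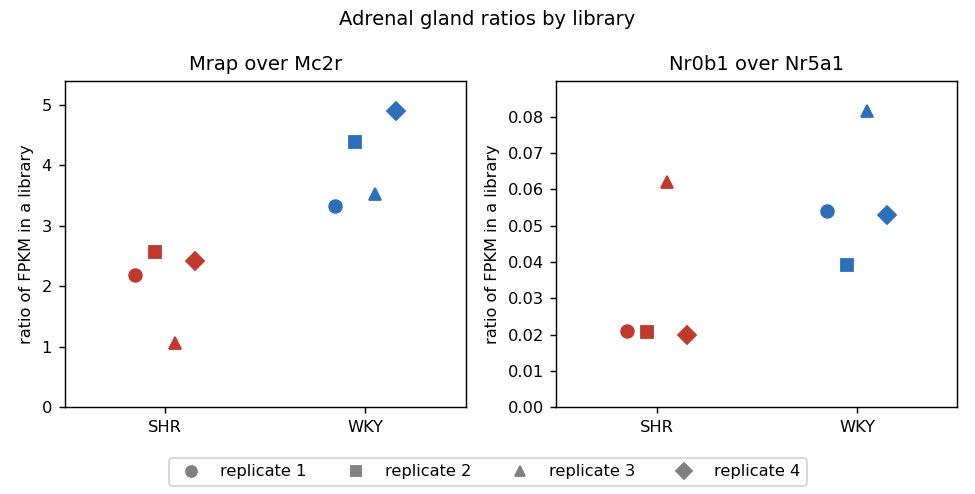
Ratio of FPKM within each adrenal library, Mrap over Mc2r on the left and Nr0b1 over Nr5a1 on the right, with SHR beside WKY and 1 symbol per replicate number. The 4 SHR ratios of Mrap over Mc2r, 1.07 to 2.56, lie below the 4 WKY ratios, 3.33 to 4.90, whereas SHR replicate 3 lies among the WKY libraries for Nr0b1 over Nr5a1.

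Of the SF-1 and DAX-1 pair, the repressor was lower in SHR and the activator showed no strain difference past the threshold. Nr0b1 had 4.56, 3.86, 7.98 and 4.61 FPKM in SHR adrenal glands and 9.21, 8.80, 12.9 and 11.1 FPKM in WKY adrenal glands. The strains did not overlap, although SHR replicate 3 came close to the lowest WKY library. The mean was 5.25 ± 1.85 FPKM in SHR and 10.5 ± 1.89 FPKM in WKY (SD, n = 4 each), so the SHR mean was 0.500 times the WKY mean. The log2 difference was -0.91 (SE 0.19, limma adjusted p = 0.00496), and it lay between -1.09 and -0.80 under the alternatives, with adjusted p from 5.63e-06 to 0.0170.

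Nr5a1 had 216, 187, 129 and 233 FPKM in SHR adrenal glands and 171, 224, 158 and 209.9 FPKM in WKY adrenal glands. The strains overlapped fully, with means of 191 ± 45.7 FPKM in SHR and 191 ± 31.2 FPKM in WKY (SD, n = 4 each). The difference was -0.02 (SE 0.19, limma adjusted p = 0.951), with a 95% interval from -0.45 to 0.42. A difference inside that interval is not excluded by these libraries.

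The ratio of Nr0b1 to Nr5a1 was 0.0211, 0.0207, 0.0621 and 0.0198 in SHR and 0.0539, 0.0393, 0.0816 and 0.0529 in WKY adrenal glands. SHR replicate 3 lay among the WKY libraries and the other SHR libraries lay below all of them. The log2 difference was -1.02 (2-sided exact permutation p = 0.114). Without SHR replicate 3 it was -1.42 (exact permutation p = 0.0286, the smallest value that 3 against 4 libraries allow).

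**Figure D3:**
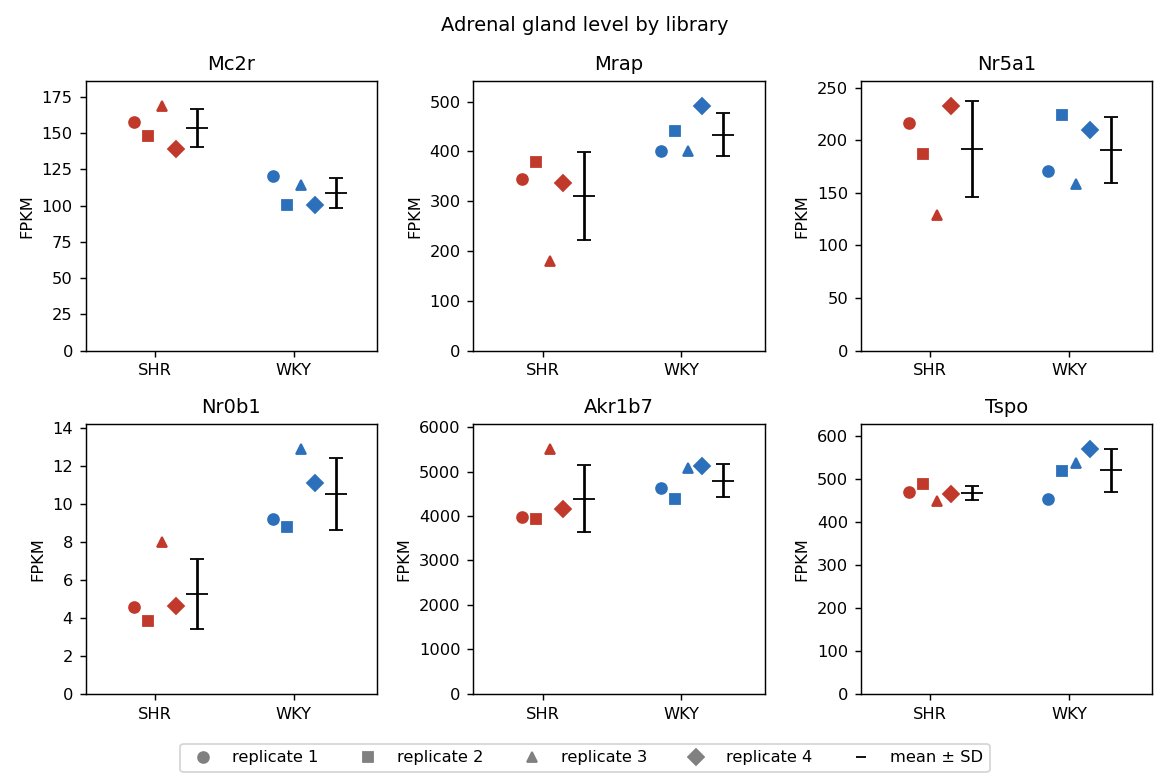
FPKM of each gene in the 4 SHR and 4 WKY adrenal libraries, with 1 symbol per replicate number and the mean ± SD beside each group, every axis starting at 0. Mc2r is higher and Nr0b1 and Mrap are lower in every SHR library than in any WKY library, while Nr5a1, Akr1b7 and Tspo overlap.

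Akr1b7, the cortex enzyme with the highest level of the 6, had 3969, 3929, 5512 and 4151 FPKM in SHR adrenal glands and 4624, 4372, 5082 and 5114 FPKM in WKY adrenal glands. SHR replicate 3 was the highest of all 8 libraries and the other SHR libraries were the lowest 3. The difference of -0.14 (SE 0.11, 95% interval -0.38 to 0.10) did not pass (limma adjusted p = 0.328). It was -0.25 and passed without SHR replicate 3 (limma adjusted p = 0.0147), and it was 0.11 with quantile normalization (limma adjusted p = 0.168).

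The other 3 measured genes of the family are related aldo-keto reductase genes. Akr1b8 and Akr1b10 lie near Akr1b7 on chromosome 4 in RefSeq's gene order, and because reads can be shared among such similar copies the split among them is uncertain. Akr1b1, aldose reductase itself, had 350.3, 360.2, 418 and 403 FPKM in SHR and 215, 226, 223 and 216 FPKM in WKY adrenal glands. It rose by 0.79 (SE 0.06, limma adjusted p = 2.36e-05), with no overlap of the strains. Akr1b10 averaged 76.9 ± 10.9 FPKM in SHR and 60.5 ± 9.66 FPKM in WKY (difference 0.34, SE 0.12, limma adjusted p = 0.0483). Akr1b8 averaged 3487 ± 437 FPKM in SHR and 3057 ± 334 FPKM in WKY and did not pass (difference 0.19, limma adjusted p = 0.163). Of the 4 tested genes of this family, Akr1b7 included, 2 rose and none fell, against 16.5% higher and 24.7% lower among all adrenal genes. Without SHR replicate 3, 1 rose and 1, Akr1b7, fell.

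Tspo had 469.9, 488, 449 and 465 FPKM in SHR adrenal glands and 453, 519, 537 and 570.0 FPKM in WKY adrenal glands. WKY replicate 1 lay within the SHR range and the other WKY libraries lay above it. The difference of -0.15 (SE 0.07, 95% interval -0.31 to 0.01) did not pass (limma adjusted p = 0.123). It passed only without WKY replicate 1, at -0.21 (limma adjusted p = 0.0144), and it was -0.00 with quantile normalization. In the left ventricle Tspo had 77.0, 79.6, 74.6 and 71.5 FPKM in SHR and 86.8, 85.5, 85.2 and 81.3 FPKM in WKY. All SHR ventricles were below all WKY ventricles, but how many ventricle genes separate by strain in this way was not counted. The difference of -0.16 (SE 0.05) was just short of the threshold (limma adjusted p = 0.0581, against 21.2% of 12451 ventricle genes called). It passed with quantile normalization (limma adjusted p = 0.0375) and without WKY replicate 4 (limma adjusted p = 0.0476). In the ganglion it was at 33.7 to 38.9 FPKM in SHR and 30.8 to 38.0 FPKM in WKY, a difference of 0.09 (limma adjusted p = 0.469).

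Among SHR adrenal glands, replicate 3 had its own pattern over the members. Relative to the SHR mean on the log2(FPKM + 1) scale it was at -0.72 for Mrap and -0.53 for Nr5a1, but at 0.56 for Nr0b1, 0.34 for Akr1b7 and 0.14 for Mc2r. Crem, a transcription factor gene induced by cyclic AMP, had 163, 203, 38.0 and 117 FPKM in SHR adrenal glands and 27.1, 47.0, 23.8 and 61.9 FPKM in WKY ones. Its strain difference did not pass the threshold. Replicate 3 was the lowest SHR library for Crem and lay inside the WKY range. It deviated by -1.51 for Crem and -1.09 for Nr4a1, whereas Cyp11a1, the first enzyme of steroid synthesis, deviated by 0.01. Summed over 6 adipocyte markers, SHR adrenal glands had 12.6, 19.5, 161 and 65.8 FPKM, with replicate 3 highest. WKY adrenal glands had 35.3, 353, 89.3 and 22.0 FPKM. The sum of 6 smooth muscle markers was 127, 124, 66.3 and 95.9 FPKM in SHR and 100.2 to 166 FPKM in WKY. The part of these cells in the pattern was not tested.

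**Figure D4:**
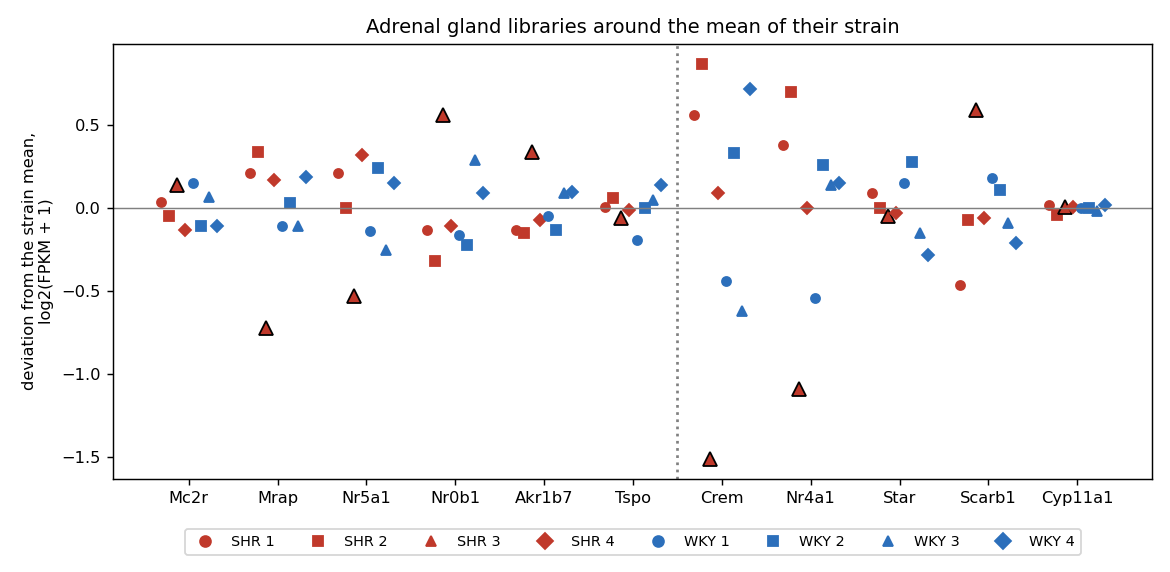
Deviation of each adrenal library from the mean of its strain on the log2(FPKM + 1) scale, for the 6 genes left of the dotted line and for 5 other adrenal genes right of it, with red for SHR, blue for WKY and a black outline for SHR replicate 3. That library is lowest among SHR for Mrap, Nr5a1, Crem and Nr4a1 and highest for Mc2r, Nr0b1, Akr1b7 and Scarb1. It is also lowest, by small margins, for Tspo (-0.06) and Star (-0.05).

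Subtracting other cortex genes of the same library changed the strain differences of the members little. The mean of Cyp11a1, Cyp21a1, Scarb1 and Fdxr, 4 steroid or cholesterol-uptake genes of the cortex, was 11.98 to 12.22 in SHR and 12.05 to 12.12 in WKY adrenal glands on the log2(FPKM + 1) scale. That mean barely differed between the strains, so the values below largely restate the differences above and are no separate support. Star, a cortex marker that was higher in SHR, was not part of it. Relative to that mean, Mc2r differed by 0.48, Mrap by -0.55 and Nr0b1 by -0.93, each with an exact permutation p = 0.0286 and p = 0.0571 after adjustment over the 6 genes. Nr5a1 differed by -0.04, Akr1b7 by -0.16 and Tspo by -0.17 (adjusted exact permutation p = 0.943, 0.240 and 0.240). With 70 relabellings no unadjusted value under 0.0286 is possible. Genes at that floor could pass after adjustment only if more of the 6 had reached it.

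Genes of the ACTH receptor pathway moved in both directions in SHR adrenal glands. Of 24 listed genes, Mc2r and Mrap included, 22 were tested, 4 rose and 9 fell, with a median difference of -0.11 against -0.04 over all genes; among all adrenal genes, too, more were lower (24.7%) than higher (16.5%). Without SHR replicate 3 the counts were also 4 and 9, and with either scaling of the libraries they were 5 and 8. Pde2a and Pde8b, phosphodiesterases that break down cyclic AMP, fell by 0.95 (SE 0.12, limma adjusted p = 3.55e-04) and by 0.63 (SE 0.13, limma adjusted p = 0.00515). Pde2a had 38.8, 39.5, 52.8 and 39.8 FPKM in SHR and 70.1, 78.3, 91.2 and 94.4 FPKM in WKY. Among the adenylyl cyclases, which make cyclic AMP, Adcy6 (-0.86) and Adcy3 (-0.70) fell and Adcy9 rose (0.51, limma adjusted p = 0.0483). Gnas, the stimulatory G protein gene, had 606 to 635 FPKM in SHR and 722 to 803 FPKM in WKY (-0.33, SE 0.05, limma adjusted p = 0.00110). Of the protein kinase A subunits, Prkar2b (-0.42), Prkar1b (-0.64) and the catalytic Prkacb (-0.23) fell and Prkar2a rose (0.22). Akap1, a kinase anchor of mitochondria, rose by 0.28. Medulla cells express several of these genes too, and the part of the lower medulla markers in them was not tested.

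Of 10 listed genes of the melanocortin system 4 reached the filter in the adrenal gland, where Mc2r rose and Mrap and Pomc did not pass the threshold. Mrap2, the paralogue of Mrap that in other tissues acts on further melanocortin receptors, had 0.62, 0.68, 0.60 and 0.67 FPKM in SHR and 1.79, 1.49, 1.45 and 2.49 FPKM in WKY adrenal glands. The strains did not overlap, and the difference was -0.76 (SE 0.12). Mrap2 passed the filter only through the WKY libraries, so its call, counted among the 9 lower genes of the pathway list, is no independent sign of a difference. In the ganglion Mrap2 averaged 29.5 ± 1.0 FPKM in SHR and 35.1 ± 1.4 FPKM in WKY (difference -0.24, SE 0.04, limma adjusted p = 0.00501). Mc5r, another melanocortin receptor gene, was below the filter at 0.80, 0.84, 0.78 and 0.68 FPKM in SHR and 0.30, 0.23, 0.31 and 0.36 FPKM in WKY adrenal glands. Pomc, the precursor gene of ACTH, was at 1.83 ± 0.12 FPKM in SHR and 1.75 ± 0.44 FPKM in WKY (difference 0.05, limma adjusted p = 0.772).

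Transcription factors of the cortex moved in both directions. Of 20 listed genes, Nr5a1, Nr0b1 and the enzyme gene Hsd17b4 included, 15 were tested, 4 rose and 6 fell. Among all adrenal genes 16.5% were higher and 24.7% lower, and the median of the list, -0.04, was that of all genes. The counts were the same without SHR replicate 3 and with either scaling. Nr0b2, which encodes the nuclear receptor SHP and is the closest relative of Nr0b1, had 6.10, 3.48, 6.99 and 5.20 FPKM in SHR and 19.4, 16.6, 21.6 and 22.5 FPKM in WKY. It fell by 1.73 (SE 0.17, limma adjusted p = 9.24e-05), so both genes of this family were lower in SHR. Nr4a1 and Nr4a2, orphan receptors induced quickly by ACTH, rose by 4.18 (SE 0.39, limma adjusted p = 1.85e-04) and 3.48 (SE 0.56, limma adjusted p = 0.00242). Nr4a1 had 467, 583, 168 and 358 FPKM in SHR and 12.6, 22.7, 20.8 and 21.0 FPKM in WKY. Cbx2, a Polycomb gene needed for adrenal growth in mouse, rose by 0.99 and Cited2, a coactivator in adrenal development, by 0.40. Tcf21, a factor of the adrenal capsule (-0.70), the orphan receptors Nr2f1 (-0.67) and Nr2f2 (-0.45) and Gata6 (-0.48) fell.

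**Figure D5:**
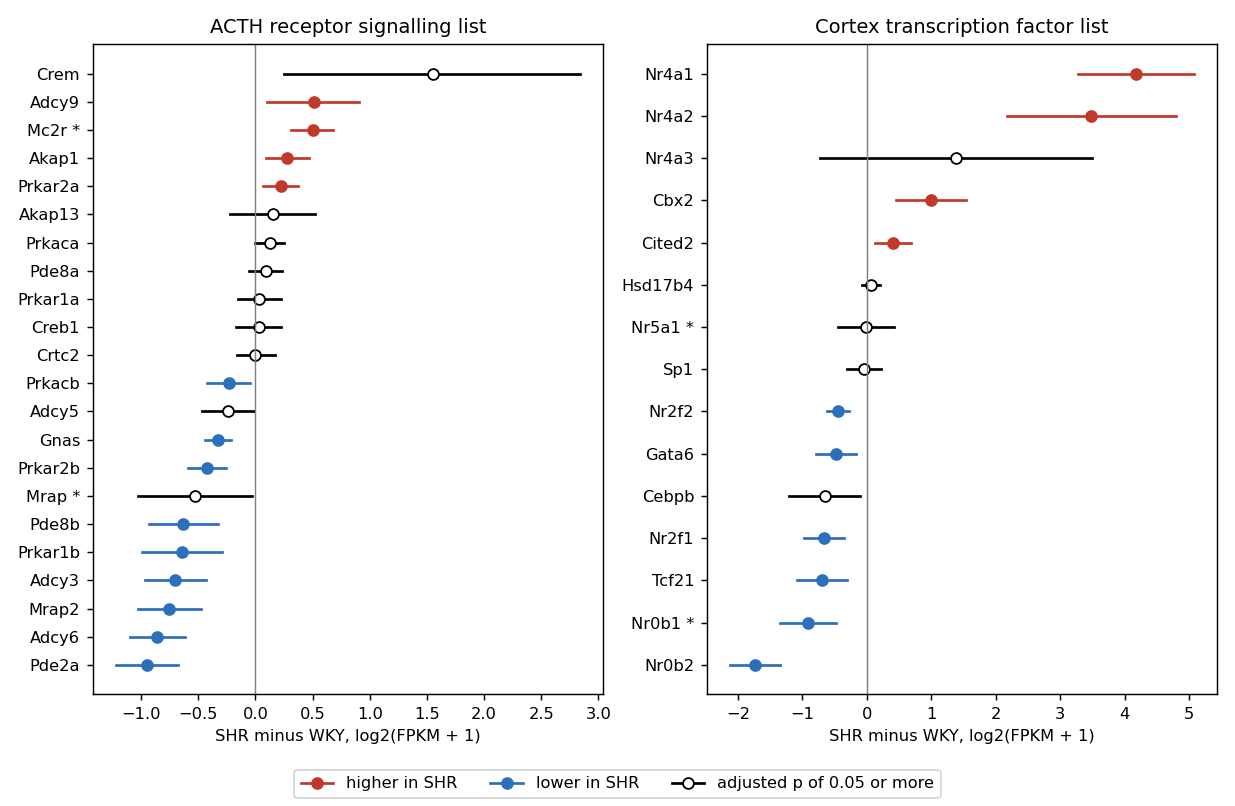
Difference between SHR and WKY adrenal glands with its 95% interval on the log2(FPKM + 1) scale for the tested genes of the ACTH receptor signalling list (left) and the cortex transcription factor list (right), red for higher, blue for lower and open for not past the threshold, with an asterisk on members. Mc2r stands among 4 higher genes on the left and Nr0b1 next to Nr0b2 among 6 lower genes on the right.

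Among signals that lay out the zones of the cortex, 8 of 16 tested genes fell and 1 rose, with a median of -0.40, against 24.7% lower and 16.5% higher among all adrenal genes; with quantile normalization 7 fell. Shh, made by the outermost cortex, had 1.20, 0.79, 1.68 and 1.48 FPKM in SHR and 2.53, 3.44, 3.94 and 3.10 FPKM in WKY (-0.90, SE 0.15, limma adjusted p = 0.00134). Wnt4 fell by 0.69, Dlk1 by 0.69, Dab2 by 0.53 and Inha, the inhibin alpha gene, by 1.15, and so did Igf1r (-0.36) and Sfrp1 (-0.76). Lgr5 (-0.45) is also among the 8, but it passed the filter only through the WKY libraries. Rnf43, an inhibitor of Wnt receptors, rose by 0.60. Of 7 zona glomerulosa markers, among them Shh, Wnt4 and Dab2, 5 fell and 1, the aldosterone synthase gene Cyp11b2, rose. With quantile normalization 5 fell and none rose. Their summed level was 3097 to 3573 FPKM in SHR and 2719.7 to 2970.0 FPKM in WKY. Most of that sum was Cyp11b2, which averaged 3111 FPKM in SHR and 2490.3 FPKM in WKY.

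Genes of steroid synthesis and cholesterol supply were more often higher in SHR: of 14 tested, 7 rose and 1 fell. Their median was 0.20 against -0.04 over all adrenal genes, of which 16.5% were higher and 24.7% lower. With quantile normalization 6 rose. Stard4, a carrier of cholesterol in the cytosol, had 80.8, 66.0, 64.0 and 78.4 FPKM in SHR and 9.31, 14.5, 6.78 and 10.5 FPKM in WKY adrenal glands (2.74, SE 0.19, limma adjusted p = 2.00e-05). Star, which brings cholesterol into the mitochondrion, rose by 0.60 (limma adjusted p = 0.00279), Cyp11b3 by 0.61, Hsd11b2 by 0.67 and Cyp11b2 by 0.32. Cyp11b2 did not pass with quantile normalization. The Cyp11b genes are close copies, so reads may be split among them. Fdx1, the electron carrier of the mitochondrial enzymes, fell by 0.69 (limma adjusted p = 3.57e-05). Of 11 tested genes on the list around Tspo, itself included, Acbd3 (0.24) and Tspoap1 (0.34) rose and Atad3a (-0.29), Vdac2 (-0.20) and Slc25a5 (-0.19) fell. Over all adrenal genes 41.2% passed in either direction. With median-of-ratios scaling 1 fell, and without SHR replicate 3 the counts were 1 higher and 2 lower.

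For Mc2r and Nr0b1 the adrenal strain difference could not be compared with that in the other tissues. Both were below 1 FPKM in every ventricle and ganglion library and passed the filter over 24 libraries only through the adrenal gland, so the contrast between tissues mainly restates the adrenal difference. As a description, the adrenal difference of Mc2r minus the ventricular one was 0.76, or 1.54 with a pseudocount of 0.1, and minus the ganglionic one it was 0.55, or 0.76 with that pseudocount. For Nr0b1 these values were -0.89 and -0.91. For Mrap the contrast with the ventricle was -0.54 (limma adjusted p = 0.213) and that with the ganglion was -0.90 (SE 0.33, limma adjusted p = 0.0410), which failed under 9 of 21 alternatives, with adjusted p from 0.0601 to 0.107. These were a pseudocount of 0.1, both scalings, and leaving out adrenal SHR replicate 3 (-0.67), adrenal WKY replicate 2 or 4, ganglion SHR replicate 1 (-0.75), or ganglion WKY replicate 1 or 3. For Tspo the contrast with the ganglion was -0.24 (limma adjusted p = 0.0537), and it passed when adrenal SHR replicate 2, adrenal WKY replicate 1, ganglion SHR replicate 1 or ganglion WKY replicate 4 was left out. Among all 14682 genes, 34.5% passed against the ventricle and 29.8% against the ganglion. These contrasts share the adrenal libraries.

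The genes most like each member across the 24 libraries had higher levels in the adrenal gland than elsewhere. The measure was Pearson's r of log2(FPKM + 1) among 9197 other genes with a mean of at least 5 FPKM in the adrenal gland, and it is dominated by the tissue difference. Mc2r was nearest to Hsd3b5, LOC103690187 and Hsd3b6 (each r = 0.999), of which the Hsd3b genes have near-identical copies. Nr5a1 was nearest to Fgfr2 (r = 0.999), Rdh16 and Hsd3b6 (each r = 0.998). Nr0b1 was nearest to Caln1 (r = 0.996), which averaged 19.0 ± 2.04 FPKM in SHR and 44.7 ± 5.90 FPKM in WKY adrenal glands, then LOC690507 and Zan. Akr1b7 was nearest to Hsd3b3, Hao2 and Hsd3b6 (each r = 0.999), Mrap to Rgn, Tmem119 and Gpt2 (r = 0.994, 0.994 and 0.993), and Tspo to Fdx1, Tbc1d20 and Shmt1 (r = 0.998, 0.997 and 0.996). Over the 8 adrenal libraries after the strain mean was removed, the nearest gene to Nr5a1 was Srebf2, the regulator of cholesterol synthesis genes (r = 0.992), and the nearest to Mrap was Osgin2 (r = 0.991). Those values are the highest found among 9197 genes over 8 libraries, of which SHR replicate 3 lies farthest from its strain mean for both members.

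The authors' deposited table gave log2 ratios of SHR over WKY in the adrenal gland of 0.56 for Mc2r (q = 6.02e-08) and -0.93 for Nr0b1 (q = 3.14e-04). The authors' deposited table gave q of 0.118 for Mrap, 0.954 for Nr5a1, 0.796 for Akr1b7 and 0.572 for Tspo.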

How the data were processed

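RNA was sequenced from adrenal gland, left ventricle and superior cervical ganglion of SHR and WKY rats, 4 libraries per group. Per the labels' protocols, Trizol-extracted total RNA entered KAPA RNA HyperPrep libraries read on a BGISEQ-500 instrument. Per the submitters' processing notes, Bowtie2, RSEM 1.3.1, DESeq2 1.4.5 and build Rnor_6.0 were used; the sources used here give neither their roles nor the annotation or filters. Per the file headers, the deposited values are FPKM, with the authors' log2 ratios and q-values per tissue; these ratios and q-values are only quoted. Of 22864 genes, 2358 were blank in all libraries.

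From the FPKM, log2(FPKM + 1) was fitted with limma 3.58.1 in R 4.3.3 (trend, robust), per tissue for genes at 1 FPKM or more in at least 4 of 8 libraries, and over all 24 libraries (at least 4) for contrasts across tissues. The p-values, 2-sided, were adjusted by Benjamini-Hochberg over all genes of a fit, with a threshold of 0.05. Ratios were tested by exact permutation. The fit was tested on simulated data. The members and gene lists were chosen with earlier results of these data known. Some listed genes are not reported here. Named genes are the members, listed genes past the threshold in the adrenal gland (up to 5 per direction by adjusted p; further ones were chosen after their values were seen), and the 3 genes most correlated with each member. Alternatives were another pseudocount, no filter, 2 scalings, a replicate block, a joint fit, limma without trend and robust moderation, and each library left out. Symbols matched RefSeq promoters by gene identifier for 4 members; Mrap and Tspo had no entry. RefSeq's build GRCr8 is not that of the deposited values, so its coordinates are given only for the promoter windows.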

Additional observations from a re-analysis of the deposited data

Results flagged for a closer look

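In 5 cases, single libraries stood far from the other 3 of their group, among 40 groups of 4 screened, of which chance alone flags about 1 in 20. In each, the gap to the nearest library was a large share of the group's range. That share was 0.860 for Akr1b7 in the SHR adrenal gland, where replicate 3 had 5512 FPKM and the next 4151 FPKM. It was 0.969 for the ratio of Nr0b1 to Nr5a1 in the SHR adrenal gland, again through replicate 3, at 0.0621 against 0.0211 in the next. For Mrap it was 0.878 in the SHR left ventricle (replicate 2, 2.93 FPKM) and 0.942 in the SHR ganglion (replicate 1, 11.8 FPKM). For Nr0b1 in the WKY left ventricle it was 1.0, because 1 library was listed at 0 and the others at 0.04 FPKM.

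The strain difference of Mrap was lower in the adrenal gland than in the ganglion, by -0.90 on the log2(FPKM + 1) scale, a contrast that failed under 9 of 21 alternatives. The fit also gave contrasts between tissues for Mc2r, of 0.76 for adrenal gland minus left ventricle and 0.55 for adrenal gland minus ganglion, and for Nr0b1, of -0.89 and -0.91. Both genes were below 1 FPKM in every ventricle and ganglion library and passed the filter only through the adrenal gland, so these contrasts do not show that the strain difference differs between tissues.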

How the results depend on the processing

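The adrenal calls of Mc2r and Nr0b1 held in all 15 alternatives. The log2 difference in the ratio of Mrap to Mc2r was -1.16 to -0.74 with libraries left out, nearest 0 without SHR replicate 3. The libraries that decided a call were SHR replicate 3 and WKY replicate 1. Leaving out each adrenal library in turn gave -0.64 to -0.29 for Mrap and -0.25 to -0.09 for Akr1b7 (both passing without SHR replicate 3) and -0.21 to -0.10 for Tspo (passing without WKY replicate 1). It gave -1.42 to -0.83 for the ratio of Nr0b1 to Nr5a1, passing without SHR replicate 3, and -0.12 to 0.16 for Nr5a1, which changed sign. Nr5a1 also changed sign with median-of-ratios scaling (0.05) and quantile normalization (0.08), as did Akr1b7 with quantile normalization (0.11). Relative to cortex enzymes, Nr5a1 was 0.04 against Cyp11a1 alone and -0.15 to 0.18 with libraries left out.

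Uncalled values near 0 that changed sign were these. For adrenal gland minus left ventricle, Akr1b7 was 0.03 with a pseudocount of 0.1, 0.08 with quantile normalization and -0.18 to 0.02 with libraries left out, Nr5a1 was 0.01 with quantile normalization and -0.17 to 0.12 with libraries left out, and Tspo was -0.05 to 0.06. For adrenal gland minus ganglion, Nr5a1 was 0.07 with quantile normalization and -0.17 to 0.11 with libraries left out. In the left ventricle alone, Mrap was -0.21 to 0.12 and Akr1b7 was -0.16 to 0.03 with libraries left out. The cause of these changes was not tested.

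The labels do not say whether equal replicate numbers mark paired samples. Same-numbered SHR and WKY adrenal libraries deviated together with r = 0.10, -0.00, 0.23 and 0.13, and the best match was the own number for 3 of 4 replicate numbers in the adrenal gland, 3 of 4 in the ventricle and 1 of 4 in the ganglion, a hint from the data only; the samples were treated as unpaired. With the replicate block the adrenal gland had 5182 calls against 5181, and no call of a member changed. The counts of all genes past the threshold stayed within 1.5 times the reported ones, from 4237 to 6627 in the adrenal gland. Unknown depth leaves levels near 0 without an error of counting.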
